A study of Sus scrofa with 12 samples.

Results

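The T cell receptor and its CD3 chains were followed with 5 of the 188 gene probes of a spotted cDNA array: TCRa (identifier TCR5), TCRd (TCR10), TCRz (TCR2), TCReta (TCR7) and CD3d (TCR8). They were picked by the name printed in the array's own columns, with earlier results of these data known. Each was printed as 8 spots on each of 12 arrays. Blood mononuclear cells of Yorkshire boars of 3 SLA-DRB1 genotypes, carrying allele 050502, allele 070701 or an allele labelled New, were compared with each other, with 2 animals per genotype. Cells received no treatment after gradient separation, their RNA was amplified once, and cDNA of 2 genotypes was hybridised together in 2 dyes. For each genotype pair there were 2 hybridised animal pairs (A and B), each run on 2 arrays with the dyes exchanged, here called A1, A2, B1 and B2. The labels give neither the age of the boars nor which hybridisations share an animal. A boar of each genotype was set against both other genotypes, so the 3 comparisons share their animals.

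A T cell recognises peptide held by an MHC molecule through an antigen receptor made either of an alpha and a beta chain or of a gamma and a delta chain. These chains have no signalling part of their own. They are carried to the surface and coupled to the cell's kinases by the CD3 gamma, delta and epsilon chains and by the zeta chain. MHC class II molecules, to which DR belongs, present to alpha-beta T cells that carry CD4. Pigs are known for a large share of gamma-delta T cells in blood, above all when young.

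TCRa and TCRd were read as the constant parts of the alpha and delta chains, and CD3d as CD3D. TCRz and TCReta were both read as CD247, the gene of the zeta chain, of which eta is a splice form known from mouse. These readings were made from the printed names, since the probe sequences and the species they were made from are not given in the sources used here. The array held 4 further chain probes, TCRb, TCRg, TCRe (read as CD3E) and CD3g. Of the 8 distinct chain symbols, 4 stood in the RefSeq pig gene table of assembly Sscrofa11.1 (CD3D, CD3E, CD3G and CD247). There, CD3E, CD3D and CD3G are neighbours with 0 protein-coding genes between them. No coordinates are given, because the files name no genome build.

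All values below are log2 ratios of the first-named genotype over the second, so a ratio below 0 means less signal in the first. The median spot of an array had an intensity between 382 and 2004 in red and between 498 and 2078.5 in green. Ratios of hybridised pairs A and B correlated across the 185 probes tested with r = 0.60 for 050502 vs 070701 and r = 0.64 for 070701 vs New. For 050502 vs New they correlated with r = -0.54, so the direction of that comparison is not settled. The arrays of its pair A, which hold the same RNA, correlated with r = 0.19, against 0.66 to 0.85 in the other dye exchanges. Array A1 of that pair had the lowest median intensities, 382 in red and 498 in green. The cause of the opposed ratios was not tested. Values of 050502 vs New are given as labelled and then with hybridised pair A turned, that is, with the sign of pair A's ratios reversed. The turn was chosen from the r of -0.54 in the same data. Intervals and p-values with pair A turned are therefore descriptive only. The test used a common spread for each probe over all 6 hybridised pairs. Turning pair A therefore also changes the intervals and p-values of the other comparisons, which are given as labelled unless stated. All 5 probes passed the filter on dim spots that left 185 of 188 probes for testing.

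Signal was set against 2 negative controls printed on the same arrays, DNA of the bacterial gene VapA and of the plasmid pACYC177. The 12 arrays give 24 channel readings per probe. TCReta was brighter than both control DNAs in 24 of 24 readings, and its median intensity was 2309.75 (range 533 to 3734.5). TCRa was brighter than both in 19 of 24 and lay between them in the other 5, with a median intensity of 1942.75 (range 503 to 5178.5). CD3d exceeded both controls in only 3 of 24 readings (median 654.5, range 91 to 2446). TCRd, at a median of 770.25 (range 263.5 to 1903.5), and TCRz, at 700.25 (range 211 to 1886), exceeded both in 0 of 24 readings. Among the 188 gene probes, 21 were brighter than both controls in all readings and 50 in at least 12 of the 24. Between the controls lay 10 readings of TCRd, 2 of TCRz and 6 of CD3d. The ratios of TCRd, TCRz and most of those of CD3d therefore come from signals no brighter than at least 1 negative-control DNA. Of the other chain probes, TCRb, for the partner of the alpha chain, was above both controls in 24 readings, TCRg in 13, TCRe in 4 and CD3g in 0.

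**Figure D1:**
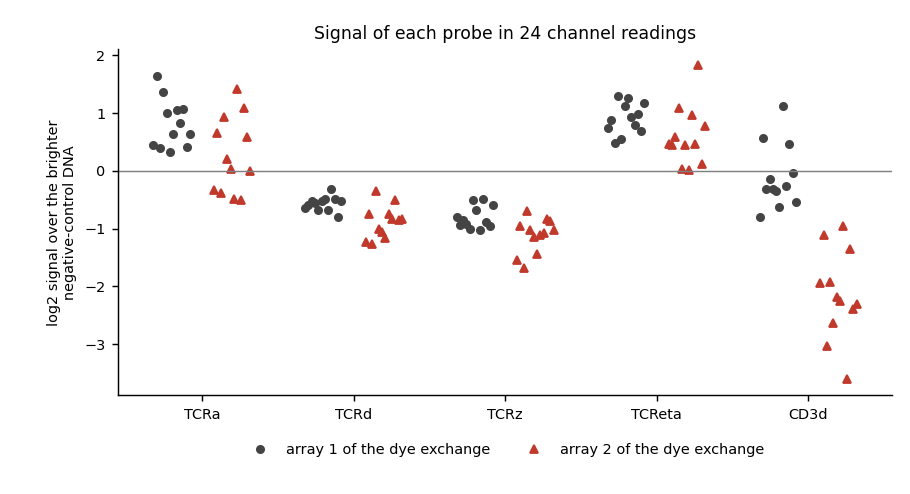
Signal of the 5 probes in 24 channel readings, as log2 of background-corrected signal over the brighter negative-control DNA of the same channel (y axis), with 1 point per reading and array 1 and array 2 of the dye exchanges as circles and triangles. All TCReta points lie above 0, all TCRd and TCRz points lie below 0, and every CD3d point of array 2 lies below every CD3d point of array 1.

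The alpha chain had the widest ratios of the 5 probes. In 050502 boars TCRa signal was below that of 070701 boars on all 4 arrays, at -0.44 on A1, -0.27 on A2, -0.92 on B1 and -0.81 on B2. Each of the 8 spots on each of these arrays was below 0, so the 2 hybridised pairs had the same direction, with pair B farther from 0 than pair A (-0.86 and -0.36). The mean was -0.61 (SD 0.358, n = 2 hybridised pairs, 95% interval -1.04 to -0.18), a ratio of 0.656. It did not pass the test over all probes (limma, unadjusted p = 0.0155, adjusted p = 0.440) and ranked 6 of 185 by p. In this comparison 1.08% of the 185 probes passed at an adjusted p of 0.05 and 0 of the 5 chain probes did. The smallest ratio that passed there was 1.12 in size, against a median of 0.09 over all probes tested.

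Against New boars, 070701 boars had more TCRa signal on all 4 arrays, at 0.78 on A1, 0.46 on A2, 0.53 on B1 and 0.21 on B2. All spots of the first 3 of these arrays were above 0, and 2 of 8 on B2 were below. The mean was 0.50 (SD 0.177, n = 2, interval 0.06 to 0.93), a 1.41-fold ratio, which ranked 11 and did not pass either (limma, unadjusted p = 0.0324, adjusted p = 0.533). Of the 185 probes 1.08% passed in this comparison, and 0 of the 5 chain probes. In both comparisons with 070701 the signal was therefore higher in 070701 boars on every array, but the same 2 boars of genotype 070701 served in both, so they are not independent. Of all probes, 11.9% had 4 arrays below 0 in 050502 vs 070701 and 15.1% had 4 above 0 in 070701 vs New. Of the 5 chain probes, 4 had 4 arrays below 0 in the first (all but CD3d), and 1, TCRa, had 4 above 0 in the second.

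For 050502 vs New, TCRa stood at 0.45 on A1, 0.27 on A2, -0.10 on B1 and 0.02 on B2. On B2 its spots ran from 0.060 to 0.296 in print blocks 1 and 3 and from -0.244 to -0.151 in blocks 2 and 4. Spots of TCRd and TCRz were split in the same way on that array. Pair A of TCRa was above 0 and pair B near 0, so the labelled mean was 0.16 (SD 0.282, n = 2, interval -0.27 to 0.59, limma adjusted p = 0.695). With pair A turned it was -0.20 (SD 0.223, interval -0.59 to 0.19, adjusted p = 0.555). The other 2 comparisons predict -0.11 for 050502 over New by addition, against 0.36 measured in pair A and -0.04 in pair B. In this comparison 0% of the 185 probes passed, 15 (8.11%) had an unadjusted p under 0.05, and 2.16% passed with the pair turned. None of the 5 chain probes passed in either direction of reading.

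**Figure D2:**
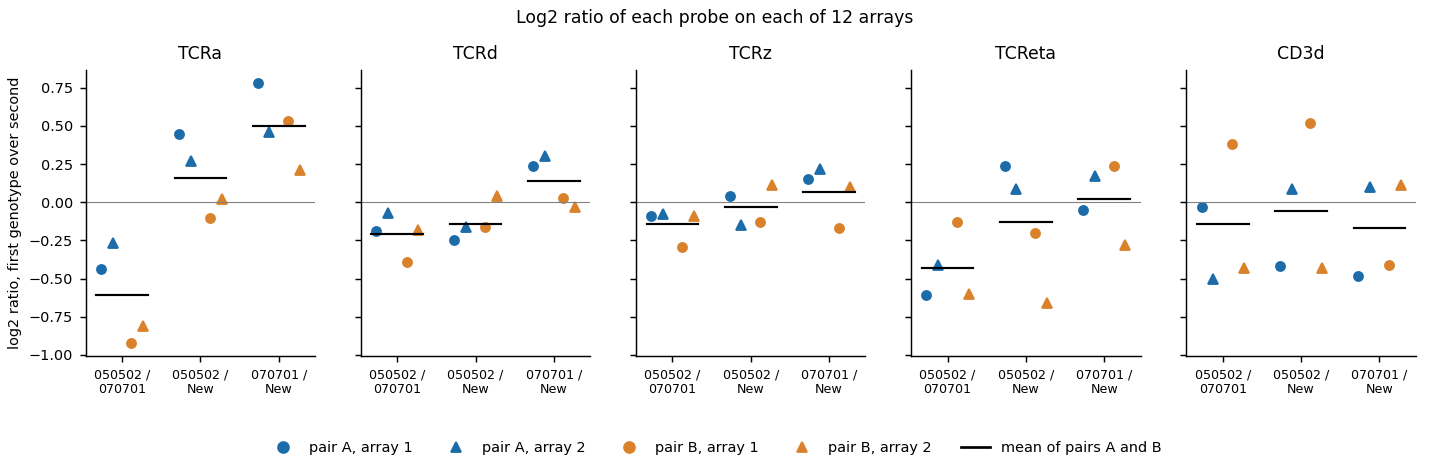
Log2 ratio of each of the 5 chain probes (y axis, first genotype over second) for the 3 genotype pairs (x axis), with 1 point per array: circles and triangles are array 1 and array 2 of a dye exchange, blue is hybridised pair A, orange pair B, and the black line is the mean of A and B. TCRa lies below 0 on all arrays of 050502 over 070701 and above 0 on all arrays of 070701 over New, while CD3d points lie on both sides of 0 in every genotype pair.

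The delta chain, which pairs with gamma in gamma-delta T cells, had ratios of -0.19, -0.07, -0.39 and -0.18 on A1, A2, B1 and B2 of 050502 vs 070701. All 4 were below 0, with a mean of -0.21 (SD 0.108, n = 2, interval -0.46 to 0.04, limma adjusted p = 0.642). Array B1, the farthest from 0, had only 6 of 8 spots found and the widest spread over spots of any TCRd array (SD 0.47). For 070701 vs New, TCRd stood at 0.24, 0.30, 0.03 and -0.03. Pair A was above 0 and pair B at 0.00, and the mean was 0.14 (SD 0.187, n = 2, interval -0.11 to 0.38, adjusted p = 0.881). For 050502 vs New it stood at -0.25, -0.16, -0.16 and 0.04, a mean of -0.14 as labelled (SD 0.102, n = 2, interval -0.38 to 0.11, adjusted p = 0.602) and 0.07 with pair A turned (adjusted p = 0.753). The New channel of A1 and both channels of B1 in that comparison were not above the background limit for TCRd.

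TCRg, the probe for the gamma chain that pairs with delta, had a ratio of 0.63 in 070701 over New (SD 0.766, n = 2, interval -0.16 to 1.42, limma adjusted p = 0.800). Its pair A stood at 1.17 and its pair B at 0.09, both above 0 but far apart. On array A1 of that comparison (0.84) TCRg was brighter than both negative controls in both channels. On A2, whose ratio lay farther from 0, TCRg was dimmer than both controls in both channels. It had -0.40 in 050502 over 070701 (SD 0.526, adjusted p = 0.699), and -0.08 in 050502 over New as labelled, or 0.08 with the pair turned. WC1.1 (TCR3), a probe named after a surface protein of gamma-delta T cells in ruminants and pigs, was chosen after its values were seen. It stood at -0.35 (SD 0.248, adjusted p = 0.507), at -0.21 as labelled or 0.04 turned, and at 0.20 (SD 0.143, adjusted p = 0.800) in 050502 over 070701, 050502 over New and 070701 over New, in that order. None of these TCRg and WC1.1 ratios passed.

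The probes read as CD247 did not have the same ratios. TCReta in 050502 vs 070701 stood at -0.61, -0.41, -0.13 and -0.60 on A1, A2, B1 and B2, all below 0, with B1 closest to 0 and 3 of its 8 spots above it. The mean was -0.43 (SD 0.101, n = 2, interval -0.82 to -0.04), a ratio of 0.740 that ranked 12 and did not pass (limma, unadjusted p = 0.0354, adjusted p = 0.507). TCRz on the same arrays stood at -0.09, -0.08, -0.29 and -0.09, closer to 0 than TCReta on all but B1. Its mean was -0.14 (SD 0.071, n = 2, interval -0.35 to 0.07, adjusted p = 0.659). TCRz was dimmer than at least 1 negative control throughout, while TCReta was brighter than both, and the difference between the 2 probes was not tested. With pair A of 050502 vs New turned, TCReta in 050502 vs 070701 had an interval of -0.66 to -0.21 (limma adjusted p = 0.129).

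For 070701 vs New, TCReta stood at -0.05, 0.17, 0.24 and -0.28, on both sides of 0, with a mean of 0.02 (SD 0.058, n = 2, interval -0.37 to 0.41, limma adjusted p = 0.997). TCRz stood at 0.15, 0.22, -0.17 and 0.10, a mean of 0.07 (SD 0.155, n = 2, interval -0.13 to 0.28, adjusted p = 0.927). TCRa was above 0 on each of these arrays, and its ratio exceeded that of TCReta by 0.56 in pair A and 0.39 in pair B. For 050502 vs New, TCReta stood at 0.24, 0.09, -0.20 and -0.66, the pairs lying on opposite sides of 0. Its mean was -0.13 as labelled (SD 0.418, n = 2, interval -0.52 to 0.26, adjusted p = 0.710) and -0.30 with pair A turned (SD 0.186, interval -0.52 to -0.07, adjusted p = 0.209). TCRz in that comparison stood at 0.04, -0.15, -0.13 and 0.11, a mean of -0.03 as labelled (SD 0.033, interval -0.24 to 0.17, adjusted p = 0.898) and 0.02 turned (adjusted p = 0.888).

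**Figure D3:**
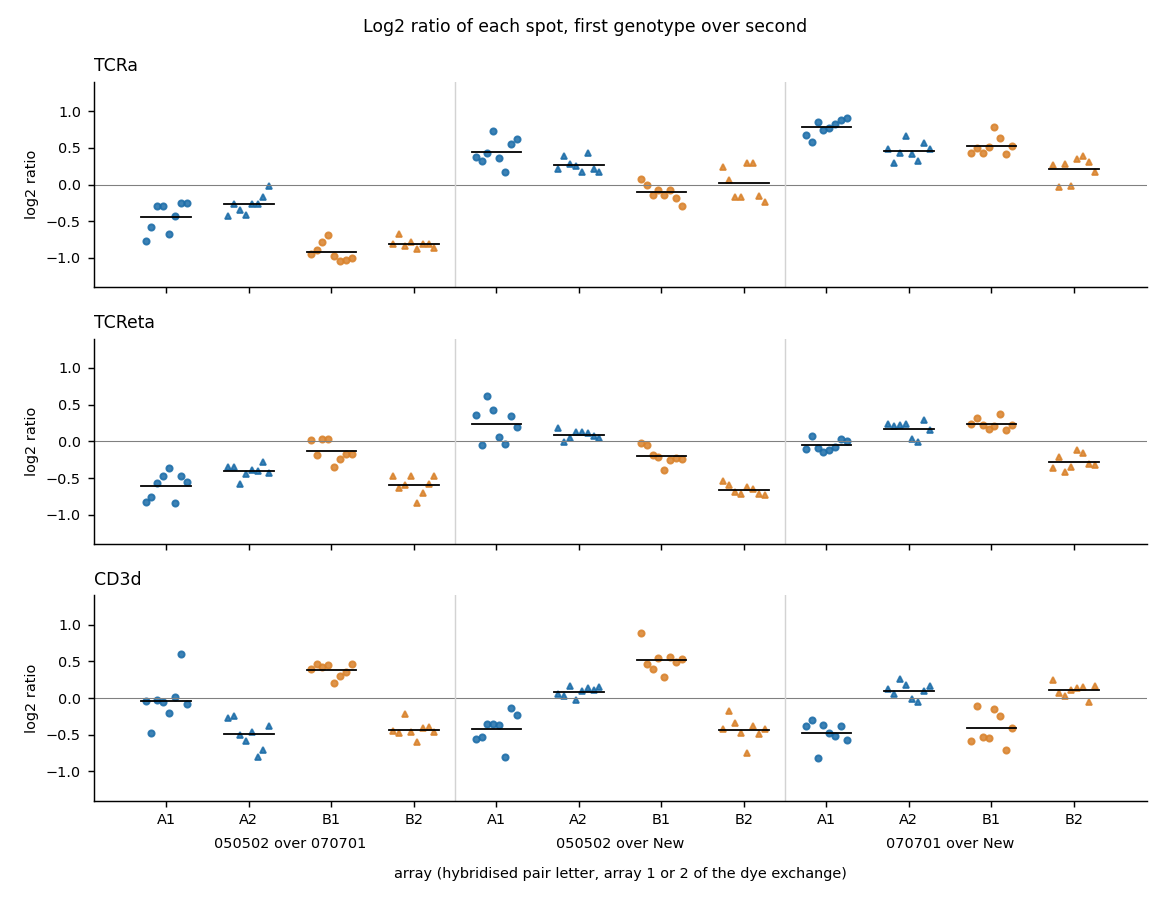
Log2 ratio of each single spot (y axis, first genotype over second) of TCRa, TCReta and CD3d on each of the 12 arrays (x axis, grouped by genotype pair), with the black line at the mean of an array's spots. Spots of an array mostly lie close together. The median SD over spots is 0.12 for TCRa, 0.11 for TCReta and 0.16 for CD3d, and the largest is 0.23, 0.24 and 0.30. Whole arrays of a dye exchange lie apart for CD3d.

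CD3d, the delta chain of CD3, had ratios that differed more between the arrays of a dye exchange than between genotypes. In 050502 vs 070701 it stood at -0.03, -0.50, 0.38 and -0.43 on A1, A2, B1 and B2, a mean of -0.14 (SD 0.169, n = 2, interval -0.38 to 0.09, limma adjusted p = 0.666). In 070701 vs New it stood at -0.48, 0.10, -0.41 and 0.11, a mean of -0.17 (SD 0.025, n = 2, interval -0.41 to 0.07, adjusted p = 0.800). In 050502 vs New it stood at -0.42, 0.09, 0.52 and -0.43, a mean of -0.06 as labelled (SD 0.147, n = 2, interval -0.30 to 0.18, adjusted p = 0.795) and 0.10 turned (adjusted p = 0.562). The arrays of a dye exchange hold the same RNA, yet had the same sign in only 1 of 6 exchanges. As few or fewer were found in 20 of the 185 probes. For TCRa the sign was the same in 5 of 6 exchanges, for TCRd and TCReta in 4, and for TCRz in 3. The close means of the hybridised pairs of 070701 vs New (-0.19 and -0.15) are thus averages of arrays of opposite sign, and the small SD between them does not include that spread.

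Averaging the arrays of an exchange without turning them gives the dye part of a probe, its log2 red over green that does not follow the genotype. For CD3d it was 0.32 in size on average, the third largest of 185 probes, against 0.14 for its genotype part and a median dye part of 0.10 over all probes. It ran from -0.48 to -0.29 in the 3 hybridised pairs scanned on days 1 to 3 and from 0.23 to 0.26 in the 3 scanned on days 4 and 5, with no overlap. A split of this kind, with the earlier days lower, was found in 16.8% of all probes, and the opposite split in 17.3%. TCRa was among the latter, at 0.06 to 0.16 on the earlier days and -0.16 to -0.09 on the later. TCRb, above both negative controls in every reading, had the smallest dye part of all probes (0.02), and its arrays had the same sign in 6 of 6 exchanges.

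**Figure D4:**
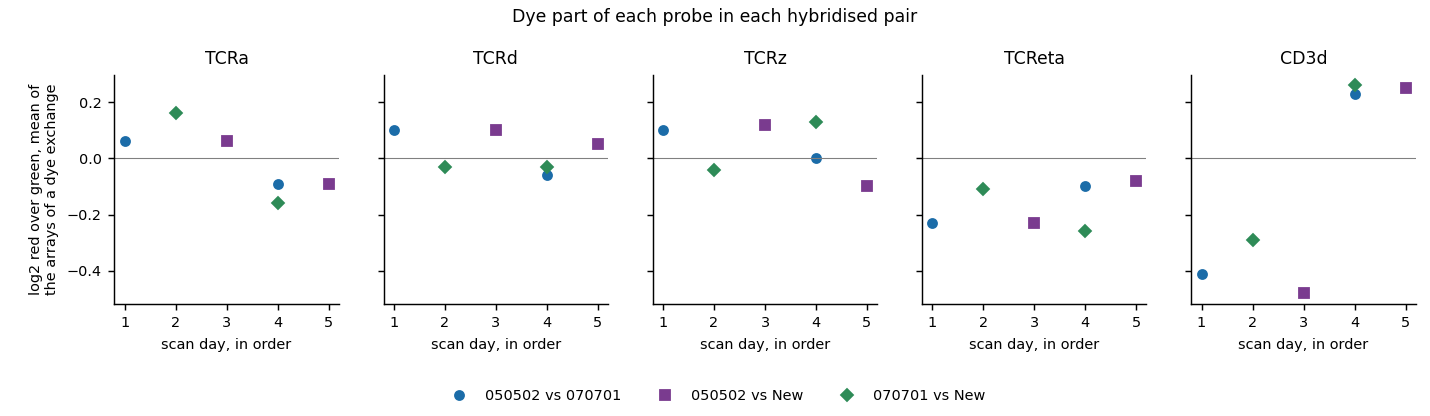
Dye part of each of the 5 chain probes (y axis, log2 red over green averaged over the arrays of a dye exchange) against the scan day in order (x axis), with 1 point per hybridised pair and the genotype pair shown by colour and shape. CD3d lies between -0.48 and -0.29 on days 1 to 3 and between 0.23 and 0.26 on days 4 and 5, and no point of the other 4 probes exceeds 0.26 in size.

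CD3d signal also differed between the first and second array of every exchange. Relative to the whole array it was lower on the second array in 6 of 6 exchanges, by 1.74 on average on the log2 scale (differences of -2.40 to -0.86), the fourth lowest difference of 185 probes. TCRg had the lowest of all, at -2.48. The other 4 members had mean differences between -0.25 and -0.01, and 63 of 185 probes were lower on the second array in all exchanges. In 050502 vs New A2, CD3d was not above the background limit in either channel. The part of this difference in the ratios was not tested.

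Read together, the 9 chain probes of the receptor complex all had ratios below 0 in 050502 vs 070701, with a median of -0.21 and a range from -0.61 to -0.05. Of all 185 probes 51.9% were below 0 and the median was -0.00. None of the 9 passed the test, and 2, TCRa and TCReta, had an unadjusted p under 0.05 in the lower direction, as had 3.24% of all probes. The 4 chain probes outside the 5 stood at -0.21 for TCRb, -0.40 for TCRg, -0.05 for TCRe and -0.12 for CD3g. In 070701 vs New 3 of 9 were below 0 (47.0% of all probes) and the median was 0.02. Only TCRa had an unadjusted p under 0.05 there in the higher direction, as had 1.62% of all probes. TCRb stood there at -0.16, below 0 on 4 of 4 arrays (as were 14.6% of all probes), opposite in sign to its partner TCRa at 0.50, and the difference between them was not tested. In 050502 vs New 7 of 9 were below 0 as labelled (48.6% of all probes, chain median -0.08) and 5 of 9 with pair A turned (45.9%, chain median -0.19). There TCRb stood at 0.24 as labelled and -0.42 turned, with pair A at 0.66 and pair B at -0.19.

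**Figure D5:**
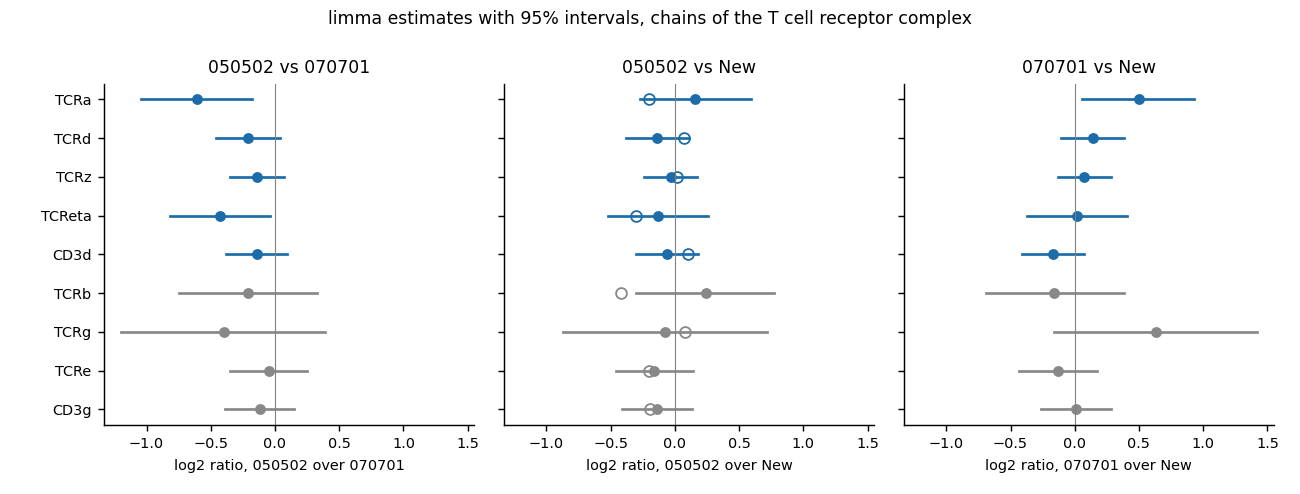
limma estimates of the log2 ratio (x axis, first genotype over second) with 95% intervals for the 9 chain probes, the 5 described here in blue and the other 4 in grey, for each genotype pair, with open circles in 050502 vs New for the estimate with hybridised pair A turned. All 9 estimates lie below 0 in 050502 vs 070701, and the intervals of only TCRa and TCReta leave out 0 there.

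The mononuclear fraction also holds other cells, and in RNA of a mixture fewer cells of a type and less RNA per cell cannot be told apart. In 050502 vs 070701, where the chain probes lay below 0, 3 of 3 probes of natural killer and cytotoxic cells lay above 0 (median 0.22, range 0.03 to 0.35), as did 5 of 6 of monocytes and dendritic cells (median 0.25, range -0.07 to 0.87). B cell probes lay on both sides (3 of 5 below 0, median -0.09, range -0.38 to 0.52). Of all 185 probes 51.9% were below 0 in this comparison. The natural killer and cytotoxic median was 0.03 in hybridised pair A and 0.42 in pair B. The monocyte medians were 0.20 and 0.25, and the B cell medians 0.07 and -0.29, in the same order. In 070701 vs New the medians were -0.00 for natural killer and cytotoxic, 0.07 for monocyte and -0.26 for B cell probes. In 050502 vs New they were 0.01, -0.06 and -0.62 as labelled and 0.06, 0.15 and -0.39 turned. None of these probes passed in any comparison as labelled. With pair A turned, the monocyte-list probe TLR2 passed in 050502 vs New (log2 ratio 1.43, limma adjusted p = 0.0444), against -0.11 as labelled. The part of these probes in the chain ratios was not tested. Only 2 of 9 chain probes, 2 of 3 natural killer and cytotoxic, 1 of 6 monocyte and 0 of 5 B cell probes were above both negative controls in all readings.

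In 050502 vs 070701 and in 070701 vs New, the probes of the other T cell lists had ratios closer to 0 than TCRa. T cell surface and costimulation probes had medians of -0.06 (8 of 10 below 0), 0.01 as labelled or -0.03 turned (4 and 5 of 10 below 0) and 0.02 (3 of 10 below 0) in 050502 over 070701, 050502 over New and 070701 over New, in that order. Receptor signalling probes had medians of 0.05, -0.08 as labelled or 0.02 turned, and -0.01 over 3 probes. T helper factors and cytokines had -0.03, 0.12 as labelled or 0.03 turned, and -0.01 over 10 probes. None passed. The transcription factor NFAT1, which is activated downstream of the receptor, was among the 3 T cell list probes of smallest p in each comparison, at 0.15 (SD 0.126, limma adjusted p = 0.642) in 050502 over 070701 and -0.20 (SD 0.019, adjusted p = 0.533) in 070701 over New. In 050502 over New it stood at -0.19 as labelled and 0.02 turned. IL2, the T cell growth factor, stood at -0.18 (adjusted p = 0.670) in 050502 over 070701 and 0.19 (adjusted p = 0.874) in 070701 over New, and at 0.27 as labelled or 0.22 turned in 050502 over New. IL17, an inflammatory T cell cytokine, stood at 0.08 (adjusted p = 0.699) in 050502 over 070701 and at 0.17 as labelled or -0.04 turned in 050502 over New. IFNg, the T helper 1 cytokine, stood in 050502 over New at 0.24 as labelled, the smallest unadjusted p of all probes there (0.00928, adjusted p = 0.558), and at 0.02 turned. NFAT1, IL2 and IFNg were above both negative controls in 0 of 24 readings and IL17 in 1.

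Scan day was the only batch the files gave. Each hybridised pair was scanned within 1 day, and day 4 alone held 2 genotype pairs, 050502 vs 070701 A and 070701 vs New B. Within it TCRa stood at -0.36 in 050502 over 070701 and at 0.37 in 070701 over New, closer to 0 than in the pairs scanned on other days (-0.86 and 0.62). TCReta stood within that day at -0.51 and -0.02, CD3d at -0.26 and -0.15, TCRd at -0.13 and 0.00, and TCRz at -0.09 and -0.04 in the same 2 comparisons. With scan day as a random block over single arrays, TCRa passed in 050502 over 070701 (log2 ratio -0.59, limma adjusted p = 0.0275). That fit counts both arrays of an exchange as replicates although they hold the same RNA, and it raised the number of passing probes to 6, against 2 without it. No other member passed in it, and TCRa in 070701 over New had 0.46 (adjusted p = 0.0812).

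The loop of 3 comparisons allows a sum of ratios that is 0 when all are free of error, the ratio of 050502 over 070701 plus that of 070701 over New minus that of 050502 over New. It was -0.27 for TCRa, 0.06 for TCRd, -0.04 for TCRz, -0.29 for TCReta and -0.25 for CD3d. The median size over all probes was 0.11. With pair A turned the sums were 0.09, -0.15, -0.09, -0.12 and -0.42 in the same order, and the median size 0.09. TCRa and TCReta therefore came closer to 0 with the pair turned, and the other 3 moved away from it.

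Likeness between probes was measured as Pearson's r over the 6 hybridised-pair ratios, which share animals, arrays and scan days, and is given as a description. TCRd and TCRz went together (r = 0.95 as labelled, 0.96 turned), and TCRg was close to both (0.97 with TCRd and 0.98 with TCRz as labelled, 0.88 and 0.96 turned). TCRd and TCRz were above both negative controls in 0 of 24 readings, and their ratios spanned less than those of TCRa. TCRg stood far from 0 only in 070701 vs New A (1.17) and 050502 vs 070701 B (-0.77). Its other ratios lay between -0.16 and 0.09. The value of 1.17 includes array A2, where TCRg was dimmer than both negative controls in both channels. TCRa had r of 0.74 with TCRd, 0.82 with TCRz and 0.79 with TCReta as labelled, and 0.69, 0.78 and 0.72 turned. CD3d had r between -0.34 and -0.23 with the other members as labelled and between -0.37 and 0.14 turned. Over all probes the most like TCRa were the immunoproteasome subunit LMP2 (0.92), the Fc receptor probe FcR2 (0.91) and the cytokine receptor kinase Jak1 (0.90). Of these Jak1 stayed among the 3 most like with the pair turned (0.96), where FcRN (0.98) was the most like. LMP2 was among the 3 most like TCReta both as labelled (0.90) and turned (0.91). As labelled it stood there with NFKB2 (0.92) and FcRI (0.90), and turned with WC1.1 and Casp1 (0.85 each). Beside TCRz and TCRg, the 3 probes most like TCRd held Casp1 (0.88) with the pair turned. Beside TCRd and TCRg, those most like TCRz held the proteasome subunit SUG1 (0.94) as labelled and LMP7 (0.92), another immunoproteasome subunit, turned. CD3d had the transcription factor STAT4 (0.90), the chemokine receptor CXCR4 (0.89) and TGFbR-1 (0.89) as labelled. Turned, it had the bacterial sensor TLR2 (0.87), STAT3 (0.70) and FasL (0.66), so none stayed.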

How the data were processed

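A GenePix 4000B scanner (635 and 532 nm) and GenePix Pro 6.0.1.25 were used, per the file headers. The deposited spot intensity values are foreground and background medians as scanned, without normalization. The deposited percent of saturated pixels per spot was 0 for every spot of the 5 probes. The authors' deposited value table holds log2 ratios of red over green that equal those of the scanner medians, with column medians from -0.69 to 0.60, so they are neither centred nor turned. It served as an alternative.

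Foreground medians were background-corrected with normexp (offset 50) and normalized by global loess within arrays, with control and not-found spots at weight 0. Spots were averaged, ratios turned, and the arrays of a dye exchange averaged. Probes entered the test when foreground was more than 2 background SD over background, in either channel and in 50% or more of the spots found, on 6 or more of the 12 arrays. The 6 ratios were fitted with lmFit and eBayes in limma 3.58.1 (R 4.3.3; 3 residual degrees of freedom, prior 1.85), with 1 coefficient per genotype pair. Tests were two-sided and p-values were adjusted by Benjamini-Hochberg over 185 probes at 0.05. The procedure was tested on simulated data. No animal term was fitted, since the labels do not tie hybridisations to animals. The intervals and p-values therefore treat the 6 ratios as independent, although the comparisons share animals. Precision is limited by the number of animals, 2 per genotype.

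The members and lists were chosen with earlier results of these data known. All members are named in all comparisons. From the T cell lists the 3 probes of smallest p per comparison are named, and for each member the 3 most like probes, apart from 1 that is not reported here. No probe sequence was used here. Other normalizations, background corrections, filters, single arrays, left-out pairs, scan day and a replicate block were tried.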

Additional observations from a re-analysis of the deposited data

Results flagged for a closer look

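In 1 of 15 groups of 4 arrays (5 probes in 3 genotype pairs) a single array stood far from the rest. TCRz in 050502 vs 070701 had a log2 ratio of -0.29 on array B1, against -0.09 to -0.08 on the other 3 arrays. Chance marks about 1 in 20 groups of 4 independent values. Arrays of a dye exchange share their RNA, so that rate is only a guide here. On that array 7 of 8 TCRz spots were found, and the probe was dimmer than at least 1 negative-control DNA in both channels.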

How the results depend on the processing

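Of 279 member values under 19 settings, 258 kept their direction and their side of the threshold, 20 changed sign and 1 came to pass. The last was TCRa in 050502 vs 070701 with scan day as a random block (-0.59, limma adjusted p = 0.0275). The 258 include values that could not change sign. A changed filter, the replicate block, or a pair of another comparison left out or turned leaves a ratio as it is. TCRa stayed between -0.86 and -0.36 in 050502 vs 070701 and between 0.34 and 0.65 in 070701 vs New under all settings. TCReta in 050502 vs 070701 stayed between -0.51 and -0.35. The cause of the sign changes was not tested. In 050502 vs New, turning pair A gave TCRa -0.20, TCRd 0.07, TCRz 0.02 and CD3d 0.10. CD3d there was 0.01 with background subtracted, 0.06 with the deposited values and 0.05 with first arrays. TCRz was 0.01 with the deposited values and 0.00 with the median over spots, and TCReta was 0.02 with first arrays. CD3d was 0.17 with first arrays in 050502 vs 070701, and in 070701 vs New it was 0.02 with the deposited values and 0.10 with second arrays. In that comparison TCRz was -0.01 with first arrays and TCReta -0.06 with second arrays. Leaving out a hybridised pair gave -0.04 to 0.36 for TCRa, -0.16 to 0.04 for CD3d and -0.43 to 0.16 for TCReta in 050502 vs New, and -0.04 to 0.18 for TCRz and -0.02 to 0.06 for TCReta in 070701 vs New. TCRd and CD3d had no value where detection was required on all arrays (128 probes).

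The number of passing probes, 2, 0 and 2 in the 3 comparisons, was 1 and 1 with first or with second arrays of each exchange in the comparisons with 070701. It was 0 and 1 with the deposited values, and 6 and 9 with scan day as a block. It was 1 with median centring in 050502 vs 070701. With pair A turned it was 4 in 050502 vs 070701 and 4 in 050502 vs New. Leaving out a hybridised pair gave 0 to 3 in 050502 vs 070701, 0 to 2 in 050502 vs New and 0 to 3 in 070701 vs New. The labels tie no animal, batch or day to the letter of a hybridised pair. With a replicate block for it, TCRa had adjusted p = 0.0598 in 050502 vs 070701 and 0.0840 in 070701 vs New, and no member passed. Deviations of pairs with the same letter correlated across probes with r of 0.53, 0.62 and 0.43 between the comparisons. These values rest on 2 letters, and those that involve 050502 vs New also on its labelled direction. Their source was not tested. With 2 animals per genotype, and TCRd, TCRz and most CD3d readings no brighter than a negative control, small differences could not be detected.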
